A study of Gallus gallus with 24 samples.

Results

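The genes described here encode the proteins of the cytosolic ribosome of the chicken. They were chosen by symbol from the gene count tables, as RPL or RPS followed by a number with or without a final A or X, together with RPLP0, RPLP1, RPLP2 and RPSA. A mean of at least 1 CPM (a gene's counts scaled to a common library size) over all libraries was also required. Of the 25466 genes counted, 64 met the rule, 39 of the large and 25 of the small subunit. All 64 symbols that matched reached the minimum level, and all 64 were among the 13000 genes that passed the filter on low counts and were tested.

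A ribosome consists of a small subunit, which reads the messenger RNA, and a large subunit, which joins the amino acids, and each is built of ribosomal RNA and of many small basic proteins. In vertebrates the mRNAs of these proteins begin with a pyrimidine tract through which mTOR signalling and the RNA-binding protein LARP1 set their translation and stability, and the transcription factor MYC raises the transcription of many of them. In growing fibroblasts they are among the most abundant mRNAs, and most of their products are needed in equal numbers.

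The RNA came from DF1, an immortal line derived from chicken embryo fibroblasts, and was sequenced as directional libraries enriched for poly(A). Cells with an IRF9 knockdown and mock cells, labelled wild type, each had 3 libraries at 0 h, 30 min, 1 h and 6 h, in all 24 libraries in 8 groups. Every sample is labelled as treated with poly(I:C), an analogue of double-stranded RNA, the 0 h samples among them. The 0 h samples serve as the baseline, and none of the 24 libraries is labelled as unstimulated cells of a later time. Poly(I:C) and time in culture thus cannot be told apart in the comparisons between times. IRF9 is a transcription factor of interferon signalling. The way in which the knockdown was made, the number of clones behind it and the source of the replicates were not stated in the labels. The p-values therefore measure the spread between these libraries, which may be technical.

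Each library held 12174030 to 19974065 counts in genes. IRF9 was lower in the knockdown, at 17.8 ± 3.30 CPM in knockdown cells and 27.6 ± 1.40 CPM in mock cells at 0 h, and at 21.7 ± 1.29 CPM in knockdown cells and 32.8 ± 0.853 CPM in mock cells at 6 h (SD, n = 3 each). Averaged over the 4 times its log2 fold change was -0.79 (SE 0.09, adjusted p = 7.67e-05 by edgeR's quasi-likelihood test). By the same test at single times, the adjusted p was under 0.05 at 30 min alone (0.0316). It was 0.997 at 0 h, 0.975 at 1 h and 0.777 at 6 h. All 18 fibroblast markers of the list used were expressed, with a sum of 6060 to 8820 CPM per library, while the epithelial and skeletal muscle lists summed to at most 0.518 CPM and 0.963 CPM. Other lists were not absent. The neural list summed to 222 to 545 CPM, the melanocyte list to 47.1 to 62.2 CPM, the leukocyte list to 18.3 to 39.5 CPM and the endothelial list to 1.72 to 5.87 CPM. These sums came from few genes. An average under 1 CPM was found for 4 of 6 neural, 2 of 3 melanocyte, 3 of 6 leukocyte and 4 of 5 endothelial genes. TUBB3 and MAP2 were the neural genes tested, and MITF was the melanocyte gene tested. Some libraries stood apart for the ribosomal protein genes. The ratio of the summed large to the summed small subunit genes was 1.486 to 1.532 in the 4 libraries of mock replicate 2 and 1.416 to 1.48 in the other 20. Among the 24 libraries, knockdown replicate 1 at 30 min held the lowest value of 50 of the 64 genes, knockdown replicate 3 at 6 h held the highest value of 38, and mock replicate 1 at 30 min held the highest value of 12.

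The 64 genes together took 3.55 to 5.06% of the gene counts of a library. In knockdown cells the 39 large subunit genes summed to 24490 ± 501 CPM at 0 h, 23080 ± 1721 CPM at 30 min, 25470 ± 1535 CPM at 1 h and 28670 ± 1029 CPM at 6 h (SD, n = 3 each). In mock cells the same sum was 24230 ± 730 CPM at 0 h, 25730 ± 1815 CPM at 30 min, 26590 ± 2898 CPM at 1 h and 25880 ± 845 CPM at 6 h. The highest group mean was thus that of knockdown cells at 6 h. The 25 small subunit genes followed the same order within knockdown cells, with 16740 ± 442 CPM at 0 h, 15780 ± 1370 CPM at 30 min, 17760 ± 971 CPM at 1 h and 20010 ± 805 CPM at 6 h. In mock cells the small subunit sum was 16560 ± 816 CPM at 0 h, 17440 ± 1671 CPM at 30 min, 18320 ± 1969 CPM at 1 h and 17460 ± 825 CPM at 6 h. The summed large subunit genes were 17.1% higher at 6 h than at 0 h in knockdown cells and 6.81% higher in mock cells. For the small subunit the figures were 19.5% in knockdown cells and 5.43% in mock cells. These are bulk samples, in which a change in the number of cells with high levels and a change in the level per cell cannot be told apart.

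**Figure D1:**
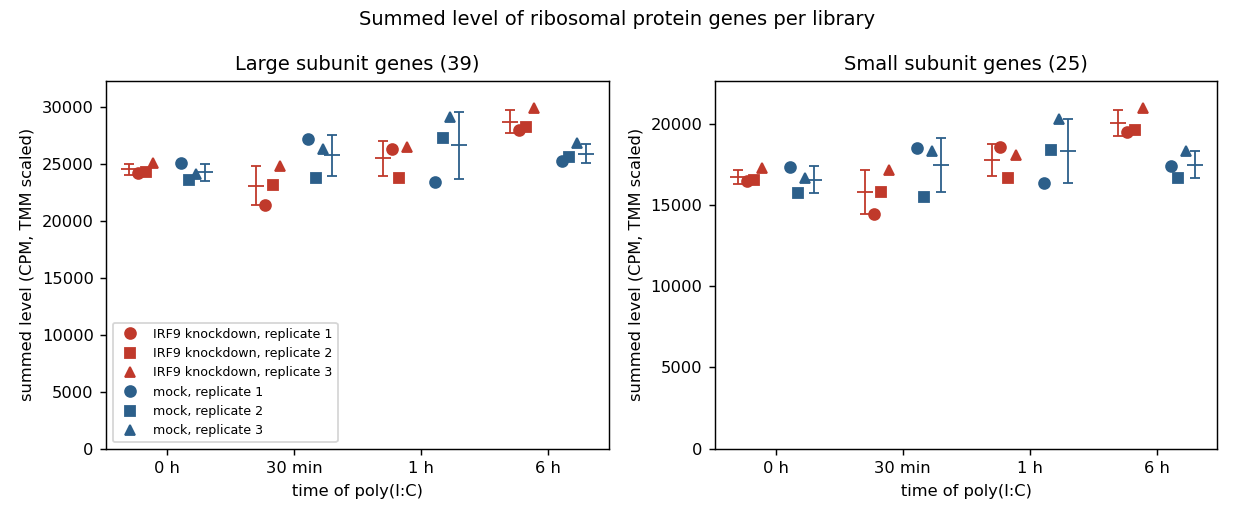
Summed CPM of the 39 large subunit genes (left) and the 25 small subunit genes (right) in each of the 24 libraries, with time of poly(I:C) on the horizontal axis and knockdown libraries left of mock libraries. Points are libraries, and bars are means with SD (n = 3). The knockdown libraries at 6 h lie at 27950 to 29850 CPM for the large subunit, above the knockdown libraries at 0 h, at 24150 to 25070 CPM.

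Within a library the genes tended to lie on the same side of their means. Each of the 3 knockdown libraries at 6 h had all 64 genes above their own mean over the 24 libraries, and so did mock replicate 3 at 1 h. At the other end, knockdown replicates 1 and 2 at 30 min had 0 of the 64 genes above their own mean. Replicates of a group could lie far apart. In mock cells at 1 h, the counts above the mean were 1, 58 and 64 genes for replicates 1, 2 and 3, and in knockdown cells at 1 h they were 52, 3 and 59. Over all tested genes, 49.3 to 54.3% lay above their own mean in a library. Over the tested genes with a mean of at least 100 CPM, as all 64 members had, the share ran from 35.9 to 63%.

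**Figure D2:**
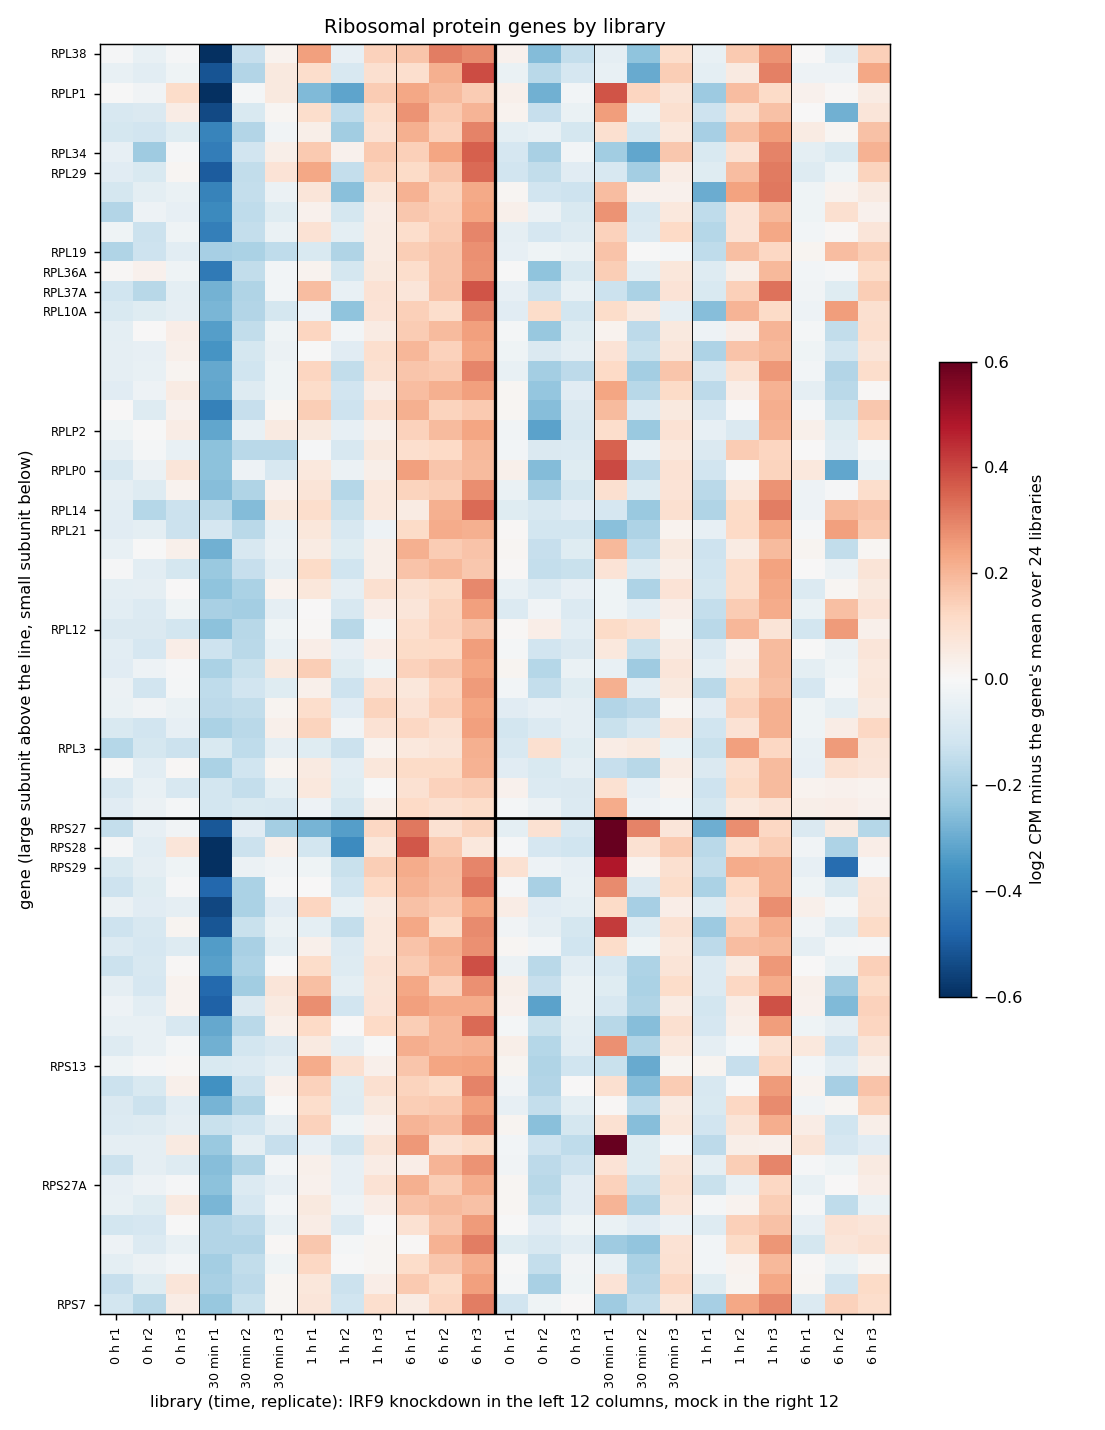
Log2 deviation of each of the 64 genes (rows, large subunit above small subunit) from its own mean over the 24 libraries (columns, knockdown before mock), with a part of the rows labelled. Colours saturate at a deviation of 0.6 in either direction. The 3 knockdown libraries at 6 h are above the mean for all 64 genes, and knockdown replicate 1 at 30 min is below it for all 64.

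In knockdown cells, the 6 h libraries stood above the 0 h libraries for nearly the whole family. All 64 genes had a positive log2 fold change, between 0.15 and 0.34 with a median of 0.24, where the median over all 13000 genes was 0.01. For 63 of the 64 genes every 6 h library exceeded every 0 h library, which held for 12.6% of all tested genes. Among the 2407 other tested genes of at least 100 CPM, the level of all members, it held for 448. A single member, RPL19, was called higher at an adjusted p under 0.05, where 1.43% of all tested genes were called higher and 1.72% in either direction. At an unadjusted p under 0.05 there were 51 members, against 10.5% of all tested genes.

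RPL19 encodes a large subunit protein, and its gene lies on chromosome 27 (chr27:4104988-4107361, GRCg7b). It had 1460, 1480 and 1591 CPM in knockdown cells at 6 h, against 1164, 1210 and 1260 CPM in knockdown cells at 0 h. The groups did not overlap, and the log2 fold change was 0.32 (SE 0.08, adjusted p = 0.0491 by edgeR). The call was close to the threshold. It was lost in 20 of the 24 fits that left out 1 library, with adjusted p up to 0.28, while the log2 fold change kept to 0.27 to 0.34. In a fit of these 6 libraries alone, with the spread estimated from them, 50 members were called higher, where 4.27% of tested genes were.

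Among the members that were not called, the largest fold change in knockdown cells was that of RPL34, a large subunit protein, which is named here after its values were seen. It had 458.6, 490.0 and 533.1 CPM at 6 h, against 401.5, 358.2 and 412.8 CPM at 0 h, a log2 fold change of 0.34 (SE 0.12, adjusted p = 0.262). The 6 h libraries of RPL34 all lay above the 0 h libraries. RPS28, a small subunit protein near the messenger RNA exit site, was the exception among the 64. It had 245.9, 211.6 and 198.5 CPM at 6 h, against 188.7, 181.5 and 199.6 CPM at 0 h, and replicate 3 at 6 h lay just below replicate 3 at 0 h. The smallest fold change was that of RPL4, a large subunit protein that lines the peptide exit tunnel, with 2824, 2782 and 2807 CPM at 6 h, against 2478, 2539 and 2578 CPM at 0 h. Its log2 fold change was 0.15 (SE 0.07, adjusted p = 0.46).

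RPL37A, a zinc-binding large subunit protein, had 1157, 1239 and 1430 CPM in knockdown cells at 6 h, against 1014, 979.7 and 1055 CPM at 0 h (log2 fold change 0.33, SE 0.10, adjusted p = 0.144). RPS20, a small subunit protein, had 1311, 1353 and 1540 CPM at 6 h, against 1078, 1102 and 1184 CPM at 0 h (log2 fold change 0.32, SE 0.10, adjusted p = 0.127). RPS23, which lies at the decoding centre, had 499.3, 513.7 and 536.0 CPM at 6 h, against 418.5, 412.5 and 419.1 CPM at 0 h (log2 fold change 0.31, SE 0.09, adjusted p = 0.0762). In all 3 genes replicate 3 was the highest of the 6 h libraries, and the times did not overlap. These 3 were also chosen after their values were seen.

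The 2 subunits had close medians in knockdown cells at 6 h. The median log2 fold change was 0.23 over the 39 large and 0.25 over the 25 small subunit genes. Of those, 39 of 39 and 24 of 25 had no overlap between 6 h and 0 h. The ratio of the large to the small subunit sum was 1.433 ± 0.006 in knockdown cells at 6 h and 1.464 ± 0.008 in knockdown cells at 0 h (SD, n = 3 each).

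Some marker lists also differed between 6 h and 0 h. The leukocyte list summed to 34.3 to 38.1 CPM in knockdown cells at 6 h, against 21 to 24 CPM at 0 h, and to 32.7 to 39.5 CPM in mock cells at 6 h, against 19.4 to 23.2 CPM at 0 h. Of its 6 genes, 4 were tested, and all 4 had a positive log2 fold change at 6 h against 0 h in both genotypes. CD3E, which encodes a T-cell receptor subunit, was called higher in knockdown cells (log2 fold change 1.00, SE 0.17, adjusted p = 0.000661) and in mock cells (1.16, SE 0.17, adjusted p = 0.000105). It averaged 22.8 CPM in knockdown cells and 23.7 CPM in mock cells at 6 h, against 11.3 CPM in knockdown cells and 10.7 CPM in mock cells at 0 h. CD74 averaged 9.52 CPM in knockdown cells and 9.53 CPM in mock cells at 6 h, against 8.77 CPM in knockdown cells and 8.40 CPM in mock cells at 0 h. PTPRC, CSF1R, SPI1 and LY86 averaged at most 2.445, 1.351, 0.181 and 0.0554 CPM in any group. The endothelial list summed to 3.82 to 4.2 CPM in knockdown cells at 6 h, against 1.72 to 2.51 CPM at 0 h. In mock cells it summed to 3.68 to 5.87 CPM at 6 h, against 2.37 to 3.51 CPM at 0 h. The neural list overlapped between these times in both genotypes. It summed to 254 to 344 CPM in knockdown cells at 6 h, against 324 to 335 CPM at 0 h. In mock cells the neural sum was 222 to 322 CPM at 6 h, against 277 to 325 CPM at 0 h. The 18 fibroblast markers had a median log2 fold change of -0.18 at 6 h against 0 h in knockdown cells, and 0 of them were called there. Averaged over both genotypes, COL5A1 of the fibroblast list was called lower (log2 fold change -0.57, SE 0.17, adjusted p = 0.044). PECAM1 of the endothelial list was called higher (0.96, SE 0.26, adjusted p = 0.0249). Of the 13000 tested genes, 175 were called lower and 481 higher in that comparison. The part of these lists in the values of the ribosomal protein genes was not tested.

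In mock cells at 6 h against 0 h, 61 of the 64 genes had a positive log2 fold change, with a median of 0.08 and a range of -0.16 to 0.21. None was called, where 1.94% of all tested genes were called higher, and 1 member had an unadjusted p under 0.05, against 9.98% of all tested genes. DESeq2 also called 0. In 10 of the 64 genes all 6 h libraries exceeded all 0 h libraries, against 8.15% of all tested genes. That count depended on single libraries and was 28 without mock replicate 1 at 0 h, where 11.5% of all tested genes had no overlap, 19 without replicate 1 at 6 h, where 12.9% had none, and 26 without replicate 2 at 6 h, where 14.5% had none. Same-numbered mock libraries deviated together, and with the replicate number as a block within each genotype 699 genes were called in place of 282, with 0 members among them. The difference between the genotypes is given with the interaction tests.

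The largest fold change in mock cells at 6 h was that of RPL21, a large subunit protein. It had 917.0, 1095 and 1028 CPM in mock cells at 6 h, against 925.8, 855.6 and 853.8 CPM in mock cells at 0 h. Replicate 1 at 6 h lay below the highest 0 h library, and the log2 fold change was 0.21 (SE 0.09, adjusted p = 0.34). RPL14, another large subunit protein, came next with 0.19 (SE 0.11, adjusted p = 0.638). The lowest was RPS29, a small zinc-binding protein of the small subunit, with 256.4, 193.3 and 264.4 CPM in mock cells at 6 h, against 282.6, 259.6 and 256.3 CPM in mock cells at 0 h. Replicate 2 was the low library, and the log2 fold change was -0.16 (SE 0.16, adjusted p = 0.865).

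Averaged over both genotypes, 6 h against 0 h, all 64 genes had a positive log2 fold change, with a median of 0.16 and a range of 0.06 to 0.26. RPL19 and RPL21 were called higher by edgeR, 2 members where 3.70% of all tested genes were called higher. At an unadjusted p under 0.05 there were 46 members, against 16.2% of all tested genes. The log2 fold change of RPL19 was 0.24 (SE 0.06, adjusted p = 0.0149), with 1333, 1498 and 1458 CPM in mock cells at 6 h, against 1276, 1295 and 1283 CPM in mock cells at 0 h. RPL21, on chromosome 1 (chr1:176157666-176162171, GRCg7b), also had a log2 fold change of 0.24 (SE 0.06, adjusted p = 0.0165), with 999.8, 1077 and 1068 CPM in knockdown cells at 6 h, against 879.5, 886.2 and 842.4 CPM in knockdown cells at 0 h. All 6 h libraries of RPL19 lay above the 0 h libraries of the same genotype, and so did those of RPL21 except mock replicate 1. RPL19 lost its call in 2 of the 24 fits without 1 library, namely knockdown replicate 1 at 0 h (adjusted p = 0.0589) and knockdown replicate 3 at 6 h (adjusted p = 0.0551). RPL21 lost it in 4, namely knockdown replicate 3 at 0 h, knockdown replicate 2 at 6 h, mock replicate 3 at 0 h and mock replicate 2 at 6 h (adjusted p up to 0.0565). With the replicate number as a block within each genotype, 32 members were called higher, where 6.90% of all tested genes were. Scaling by total counts ended both calls, with adjusted p = 0.097 for RPL19 and 0.0886 for RPL21.

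Against 1 h in place of 0 h, over both genotypes, 60 of the 64 genes were positive at 6 h with a median log2 fold change of 0.05. The median was 0.003 when replicate 1 of the mock 1 h libraries was left out, and 0.08 when replicate 3 was. None was called by edgeR, where 3.64% of all tested genes were called higher, or by DESeq2, and 2 members had an unadjusted p under 0.05, against 14.7% of all tested genes.

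**Figure D3:**
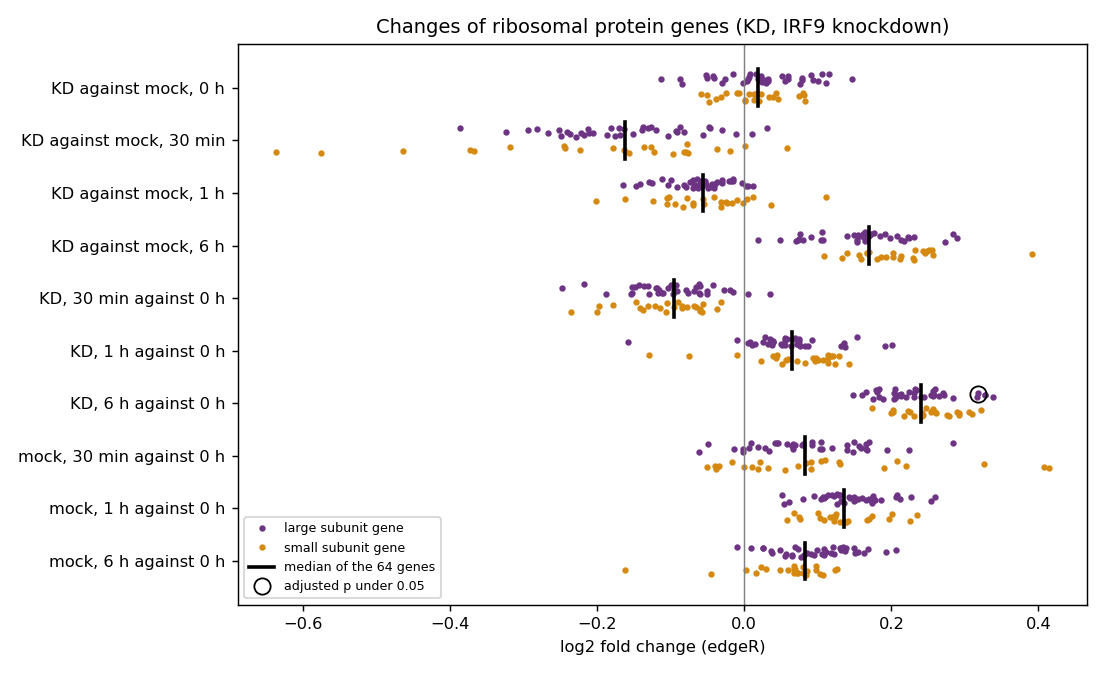
Log2 fold changes of the 64 genes (points, large and small subunit apart) in each comparison between groups, the later time over 0 h and the knockdown over mock, on a linear axis of log2 units. All 64 points lie above 0 for 6 h against 0 h in knockdown cells, with a median of 0.24, and for knockdown against mock at 6 h, with a median of 0.17, while 60 of 64 lie below 0 for knockdown against mock at 30 min.

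In knockdown cells the earlier times gave smaller and less even differences than 6 h. In mock cells the differences at earlier times were not smaller, with a median of 0.08 at 30 min, 0.14 at 1 h and 0.08 at 6 h. The mock libraries were less even at the earlier times, with an SD of the large subunit sum of 1815 CPM at 30 min, 2898 CPM at 1 h and 845 CPM at 6 h. At 30 min against 0 h in knockdown cells 62 of 64 genes had a negative log2 fold change, with a median of -0.10, and 8 had all 30 min libraries below all 0 h libraries, where 5.00% of all tested genes did, and 0 had all above, where 4.98% did. No member was called by edgeR, where 0% of all tested genes were, or by DESeq2, and 0 members had an unadjusted p under 0.05, against 1.75% of all tested genes. The lowest was RPL38, a small large-subunit protein that in the mouse is needed for the translation of Hox mRNAs, with 164.3, 261.8 and 292.2 CPM at 30 min, against 287.1, 279.5 and 286.8 CPM at 0 h. Replicate 1 at 30 min was far the lowest, while replicate 3 was above all 0 h libraries (log2 fold change -0.25, SE 0.14, adjusted p = 0.999). At the other end was RPL3, a large subunit protein next to the peptidyl transferase centre, with 711.2, 682.4 and 731.6 CPM at 30 min, against 674.3, 705.5 and 694.3 CPM at 0 h (log2 fold change 0.04, SE 0.09, adjusted p = 0.999). The median log2 fold change of the members was -0.16 without knockdown replicate 3 at 30 min and -0.03 without replicate 1. Without replicate 3 at 30 min 52 members had no overlap, against 13.2% of all tested genes, and without replicate 1 at 0 h 13 had none, against 9.56%.

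At 1 h against 0 h in knockdown cells 59 of 64 genes had a positive log2 fold change, with a median of 0.07, and 9 had all 1 h libraries above all 0 h libraries, where 4.20% of all tested genes did. In 0 all lay below, where 5.11% did. RPL34 and RPL37A, both of the large subunit, were the highest, at 0.20 (SE 0.12) and 0.19 (SE 0.10), and RPLP1 was the lowest at -0.16 (SE 0.15). By edgeR and by DESeq2 0 members were called, where edgeR called 0.0231% of all tested genes, and 0 had an unadjusted p under 0.05, against 1.88%. Replicate 2 was the low library, and without it 47 members had no overlap, against 8.58% of all tested genes, and the median was 0.12. Without replicate 3 at 1 h the median was 0.04. The 9 became 15 without replicate 3 at 0 h, where 8.98% of all tested genes had no overlap.

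In mock cells at 30 min 53 of 64 genes had a positive log2 fold change, with a median of 0.08, and 4 had no overlap with 0 h, where 3.64% of all tested genes had none. RPS28 was the highest, with 307.7, 202.2 and 211.7 CPM in mock cells at 30 min, against 189.2, 177.1 and 174.9 CPM in mock cells at 0 h. All 30 min libraries lay above the 0 h libraries, with replicate 1 highest, and the log2 fold change was 0.41 (SE 0.16, adjusted p = 0.986). The 4 became 36 without replicate 2 at 30 min, where 12.1% of all tested genes had no overlap, 16 without replicate 1 at 0 h, where 7.02% had none, and 9 without replicate 2 at 0 h, where 7.32% had none. The median was 0.04 without replicate 1 at 30 min and 0.14 without replicate 2 at 30 min. At 1 h all 64 genes had a positive log2 fold change against 0 h in mock cells, with a median of 0.14, yet 1 gene had no overlap, RPS24, where 2.66% of all tested genes had none. Without replicate 1 at 1 h, the low library, 57 members had no overlap, against 8.20% of all tested genes, and the median was 0.23. Without replicate 3 at 1 h the median was 0.07, and without replicate 1 at 0 h 14 members had no overlap, against 5.44% of all tested genes. At both times 0 members were called by edgeR and by DESeq2, where edgeR called 0% of all tested genes at 30 min and 0.0154% at 1 h. Unadjusted p under 0.05 came to 4 members at 30 min, against 4.97% of all tested genes, and 6 at 1 h, against 2.35%.

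The knockdown was compared with mock cells at each time. At 0 h the levels were close, with 45 of 64 genes higher in the knockdown by sign and a median log2 fold change of 0.02. None was called by edgeR or DESeq2, and edgeR called 0% of all tested genes. At an unadjusted p under 0.05 there were 0 members, against 1.51% of all tested genes. RPL7 had no overlap upward, where 4.71% of all tested genes had none, and RPL3, RPL12 and RPL19 had none downward, where 5.01% had none. RPL3 had 674.3, 705.5 and 694.3 CPM in knockdown cells, against 709.8, 811.7 and 721.6 CPM in mock cells at 0 h (log2 fold change -0.11, SE 0.09, adjusted p = 0.997). RPLP2 had the highest value, 0.15 (SE 0.10, adjusted p = 0.997), with 433.4, 440.3 and 454.3 CPM in knockdown cells, against 433.7, 352.9 and 412.9 CPM in mock cells. Mock replicate 2 was the lowest library there, and without mock replicate 1 at 0 h 19 members had no overlap upward, against 13.7% of all tested genes.

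At 30 min 60 of the 64 genes were lower in the knockdown by sign, with a median log2 fold change of -0.16. None was called by edgeR, where 0.00769% of all tested genes were, and 24 had an unadjusted p under 0.05, against 13.3% of all tested genes. DESeq2 called 1, RPS27, and the share of all tested genes that DESeq2 called is not given here. In 14 genes all knockdown libraries lay below all mock libraries, where 6.44% of all tested genes did, and in 0 all lay above, where 5.42% did. RPS27, a zinc-binding small subunit protein, had 86.7, 117.7 and 107.1 CPM in knockdown cells, against 203.5, 151.5 and 129.9 CPM in mock cells (log2 fold change -0.64, SE 0.15, adjusted p = 0.169). RPS28 had 116.1, 173.9 and 193.7 CPM in knockdown cells, against 307.7, 202.2 and 211.7 CPM in mock cells (log2 fold change -0.57, SE 0.16, adjusted p = 0.169). RPS29 had 147.3, 259.2 and 261.8 CPM in knockdown cells, against 370.2, 269.1 and 283.4 CPM in mock cells (log2 fold change -0.46, SE 0.16, adjusted p = 0.202). In each of these the replicate 1 libraries lay farthest out, the knockdown library lowest and the mock library highest of the 24. Without mock replicate 1 the log2 fold change was -0.44 for RPS27 and -0.36 for RPS28, and without knockdown replicate 1 it was -0.51 and -0.38. Without mock replicate 3, 4 members were called lower, in a fit that called 741 genes in place of 1, and without mock replicate 2 the 14 genes without overlap became 44, against 15.0% of all tested genes. Without knockdown replicate 3 they became 31, against 11.4%. The neural list summed to 260 to 328 CPM in knockdown cells at 30 min, against 306 to 545 CPM in mock cells, and its part in these values was not tested. At the upper end RPS13 and RPL21 were near 0, at 0.06 (SE 0.08) and 0.03 (SE 0.09).

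At 1 h 57 of 64 genes were lower in the knockdown by sign, with a median of -0.06, and 0 were called by edgeR, where 0% of all tested genes were, or by DESeq2, with 0 at an unadjusted p under 0.05, against 2.32% of all tested genes. The groups overlapped in all 64 genes, where 3.07% of all tested genes had no overlap upward and 3.38% downward. RPS27 was the lowest at -0.20 (SE 0.15, adjusted p = 0.999), with 101.8, 98.1 and 134.6 CPM in knockdown cells, against 100.8, 149.6 and 134.4 CPM in mock cells. RPS13, a small subunit protein, was the highest at 0.11 (SE 0.08, adjusted p = 0.999). Mock replicate 1 had 1 of the 64 genes above its own mean, and without it 27 members had no overlap downward, against 11.8% of all tested genes, and the median was -0.14. Without mock replicate 3 at 1 h the median was 0.02.

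At 6 h all 64 genes were higher in the knockdown by sign, with a median log2 fold change of 0.17 and a range of 0.02 to 0.39. None was called by edgeR, where 0% of all tested genes were, or by DESeq2, and 19 members had an unadjusted p under 0.05, against 6.15% of all tested genes. In 42 of the 64 genes every knockdown library exceeded every mock library, where 6.92% of all tested genes did. In 0 every one lay below, where 6.35% did. Of the 2407 other tested genes of at least 100 CPM, 236 lay above and 167 below without overlap. The 42 members were 23 of the 39 large and 19 of the 25 small subunit genes. The median log2 fold change was 0.16 over the large and 0.20 over the small subunit genes. With libraries scaled by total counts the 42 became 22, and no share of all tested genes under that scaling is given here. Leaving out 1 library gave 42 to 55, where 10.9 to 15.0% of all tested genes had no overlap.

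RPS29 had the largest difference at 6 h, with 309.3, 301.8 and 325.4 CPM in knockdown cells, against 256.4, 193.3 and 264.4 CPM in mock cells (log2 fold change 0.39, SE 0.16, adjusted p = 0.777). RPLP0 came next, with 1340, 1268 and 1289 CPM in knockdown cells, against 1181, 909.1 and 1099 CPM in mock cells (log2 fold change 0.29, SE 0.11, adjusted p = 0.777). In both, mock replicate 2 was the lowest library, and the groups did not overlap. RPL3 and RPL21 had the smallest differences, 0.02 (SE 0.09) and 0.05 (SE 0.09). RPL3 had 792.2, 800.3 and 880.3 CPM in knockdown cells, against 735.3, 904.4 and 800.8 CPM in mock cells, which overlapped. The 18 fibroblast markers had a median log2 fold change for knockdown against mock of -0.14 at 0 h, -0.20 at 30 min, -0.15 at 1 h and -0.24 at 6 h, with 0 called at each time. Whether they bear on the ribosomal protein genes was not tested.

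The difference of differences was tested as an interaction of knockdown with time. For 6 h against 0 h all 64 genes had a positive interaction, with a median of 0.15, and for 30 min against 0 h 62 of 64 had a negative one, with a median of -0.18. For 1 h against 0 h 61 were negative, with a median of -0.07, which was -0.16 when replicate 1 of the mock 1 h libraries was left out, and -0.004 when replicate 3 was. In each of these 3 tests edgeR called 0% of all tested genes and 0 members, and DESeq2 called 0 members. The smallest adjusted p among members was 0.825 at 30 min and 1 at 6 h. Unadjusted p under 0.05 came to 9 members at 30 min, against 5.77% of all tested genes, 0 at 1 h, against 1.05%, and 1 at 6 h, against 1.57%. For no single gene did a test show a different time course in the knockdown. Averaged over the 4 times, knockdown against mock, 31 genes were positive and 33 negative with a median of -0.001. By edgeR and by DESeq2 0 were called, where edgeR called 0.00769% of all tested genes, and 3 had an unadjusted p under 0.05, against 10.8%.

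The time comparisons of a genotype share its 0 h libraries, and the comparisons of knockdown with mock at 6 h and of 6 h with 0 h in knockdown cells share the knockdown libraries at 6 h, so that these results are not independent of each other.

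Proteins of the ribosomal stalk, which recruits the elongation factors, were RPLP0, the base, and RPLP1 and RPLP2, the acidic arms. RPLP0 in knockdown cells had 1340, 1268 and 1289 CPM at 6 h, against 1055, 1101 and 1188 CPM at 0 h, a log2 fold change of 0.22 for 6 h over 0 h (SE 0.11, adjusted p = 0.523). RPLP1 in knockdown cells had 527.7, 521.8 and 571.3 CPM at 0 h, 316.9, 525.0 and 551.3 CPM at 30 min, 439.7, 424.3 and 588.7 CPM at 1 h and 620.7, 603.5 and 587.4 CPM at 6 h. Its log2 fold change for 6 h over 0 h was 0.16 (SE 0.15, adjusted p = 0.843), and it varied among replicates at 30 min and 1 h. RPLP2 had 484.7, 503.6 and 519.8 CPM in knockdown cells at 6 h, against 433.4, 440.3 and 454.3 CPM at 0 h, without overlap, and a log2 fold change of 0.18 (SE 0.10, adjusted p = 0.594).

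A few other members are described for their known roles, and were picked after their values were seen. RPS6, the small subunit protein that S6 kinase phosphorylates downstream of mTOR, had 772.3, 813.0 and 867.0 CPM in knockdown cells at 6 h, against 672.2, 676.8 and 725.4 CPM at 0 h (log2 fold change 0.24, SE 0.07, adjusted p = 0.131). RPL5 and RPL11, which join the 5S ribosomal RNA and in mammals can bind MDM2, had log2 fold changes of 0.17 (SE 0.08, adjusted p = 0.468) and 0.24 (SE 0.09, adjusted p = 0.253) for the same comparison. RPL11 had 283.6, 277.9 and 308.8 CPM at 6 h, against 244.7, 240.3 and 251.9 CPM at 0 h. RPS27A, made as a fusion with ubiquitin, had 622.1, 594.2 and 622.7 CPM in knockdown cells at 6 h, against 518.2, 525.7 and 532.7 CPM at 0 h (log2 fold change 0.22, SE 0.08, adjusted p = 0.266). In all of these the 6 h libraries lay above the 0 h libraries, and none was called.

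**Figure D4:**
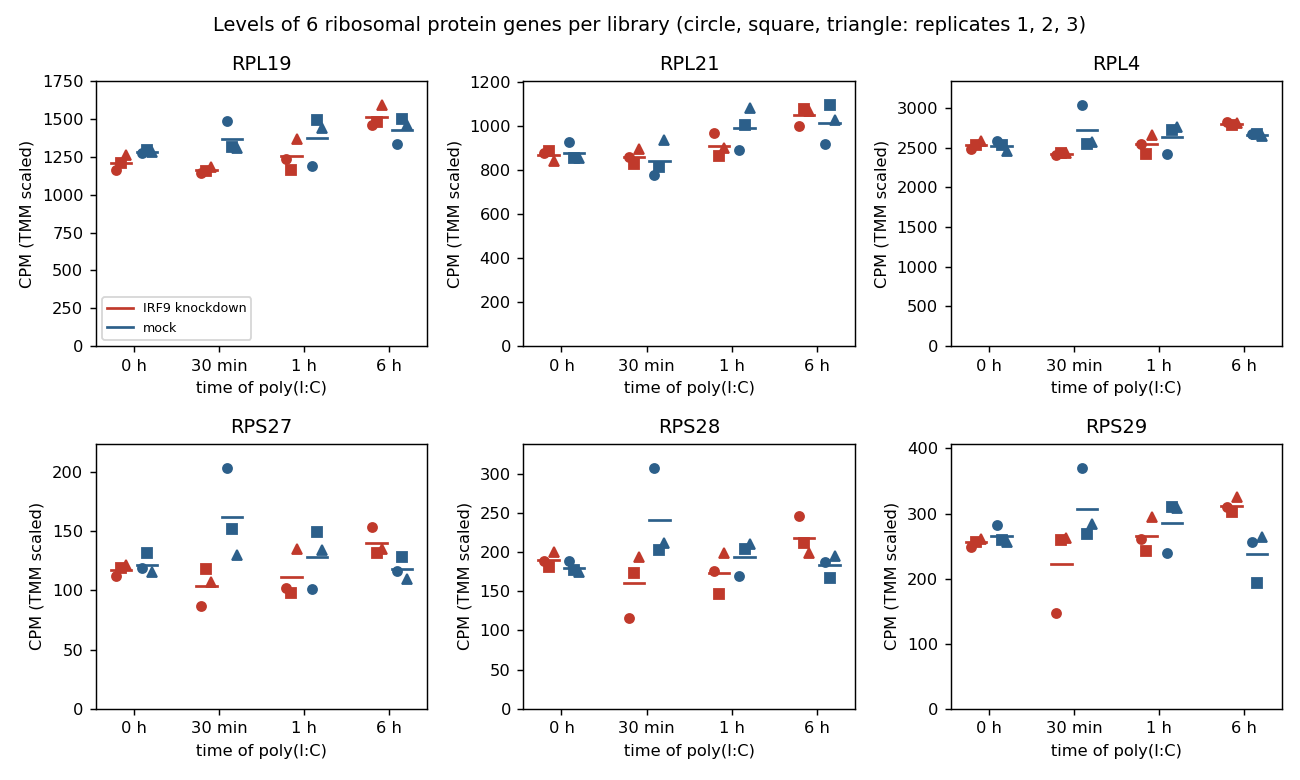
CPM of 6 members in each library, with time on the horizontal axis and knockdown left of mock at each time. Points are libraries and bars are group means, on linear axes that start at 0. RPL19 reaches 1460 to 1591 CPM in knockdown cells at 6 h, and RPS27 shows a single high mock library of 203.5 CPM at 30 min.

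Members differed in how widely their group means ranged. Over the 8 groups, the range between the highest and the lowest group mean was 0.21 to 0.62 on the log2 scale, with a median of 0.34, where 2407 other tested genes of at least 100 CPM had a median of 0.24. The highest group mean was that of knockdown cells at 6 h in 60 members and of mock cells at 30 min in 4, namely RPLP1, RPS26, RPS27 and RPS28. The lowest was that of knockdown cells at 30 min in 57. The widest ranges were those of RPS27 (0.62), RPS28 (0.58), RPL38 (0.56) and RPS29 (0.53). The narrowest were those of RPL4 (0.21), RPL6 (0.23) and RPL5 (0.24). RPL4 also had the smallest median SD of log2 CPM within groups, 0.03, while RPS21, RPS29 and RPS27 had the largest, at 0.19, 0.18 and 0.17. RPS27 and RPS29 were thus among both the widest ranges between groups and the widest spreads among replicates.

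RPL38 in knockdown cells had 342.4, 278.9 and 317.6 CPM at 1 h and 323.2, 356.6 and 350.5 CPM at 6 h, and the low value of 164.3 CPM came from replicate 1 at 30 min. RPS21, a small subunit protein, had 398.7, 303.3 and 347.5 CPM in knockdown cells at 1 h and 304.5, 339.4 and 428.8 CPM in mock cells at 1 h, so that replicates of a group were farther apart than the group means. RPL6, a large subunit protein, was even among replicates, with 933.0, 935.0 and 933.2 CPM in mock cells at 6 h.

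The annotated genes of RPS29, RPS28 and RPS27 span 517, 554 and 938 bases and those of RPL4, RPL6 and RPL5 span 5320, 6140 and 8066 bases, introns included. Whether length has a part in the range was not tested.

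**Figure D5:**
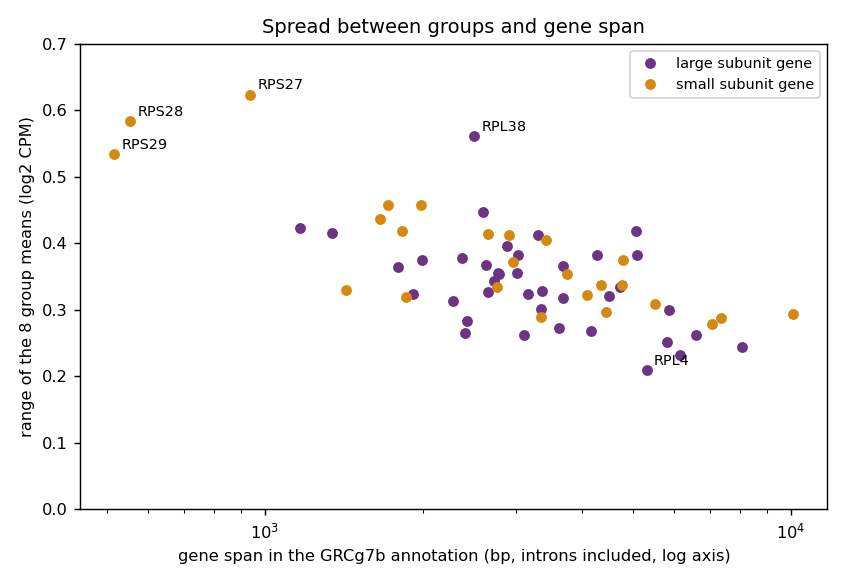
Range of the group means of each of the 64 genes (vertical axis, log2 CPM) against the genomic span of its gene (horizontal axis, bases, log scale), with large and small subunit genes apart. RPS29, RPS28 and RPS27, the 3 genes of shortest span, have ranges of 0.53, 0.58 and 0.62, RPL38 reaches 0.56 at a span of 2501 bases, and RPL4 lies lowest at 0.21.

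The 64 genes lay on 28 chromosomes, with 9 on chromosome 1 and 6 on chromosome 2, and were thus spread over the genome. Among the pairs within a megabase of each other were RPL19 with RPL23 and RPL27 on chromosome 27, RPL10A with RPS10 on chromosome 26 and RPL36 with RPS28 on chromosome 28. RPL23, the nearest neighbour of RPL19, had 919.8, 927.4 and 1016 CPM in knockdown cells at 6 h, against 807.2, 794.6 and 849.0 CPM at 0 h (log2 fold change 0.22, SE 0.10, adjusted p = 0.391). Another annotated gene overlapped 31 of the 64 members, which in 7 of them was a named gene other than a small RNA, and the counts of those members are uncertain where the counting did not use strand.

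Genes of the family under other symbols lay outside the rule and are given for comparison. RPSAP58, to which the gene table gives the synonym RPSA, a small subunit protein, averaged 1815 CPM in knockdown cells at 6 h and 1574 CPM in knockdown cells at 0 h. RPS4Y1, with the synonym RPS4X, averaged 1062 CPM in knockdown cells at 6 h and 925.6 CPM at 0 h (log2 fold change 0.20, SE 0.09, adjusted p = 0.404). RPL26L1, with the synonym RPL26, had a log2 fold change of 0.29 (SE 0.10, adjusted p = 0.254) and RPL39L, with the synonym RPL39, of 0.23 (SE 0.09, adjusted p = 0.262). A separate list of 19 symbols held paralogs outside the rule, fusion genes and related factors such as RACK1, a scaffold protein of the small subunit, and it included RPS4Y1, RPL26L1 and RPL39L but not RPSAP58. Of its 19 entries 12 were in the tables and 11 were tested. All 11 had a positive log2 fold change in knockdown cells at 6 h against 0 h, with a median of 0.18, and 0 were called. RPL3L, a form of RPL3 known from striated muscle, averaged 0.37 CPM and was not tested.

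Other genes of the protein synthesis apparatus were read from lists. The list of translation factors also held TPT1, NAP1L1, HNRNPA1, NACA, BTF3 and VIM, the last of which is also among the fibroblast markers. Of this list 46 of 50 genes were tested. In knockdown cells at 6 h against 0 h 39 had a positive log2 fold change, with a median of 0.11 and 0 called. Over both genotypes EIF5A2, a form of the elongation factor eIF5A, was called higher (log2 fold change 0.21, SE 0.06, adjusted p = 0.0298), 2.17% of the list where 3.70% of all tested genes were. Of the ribosome biogenesis factors 110 of 124 were tested, and 95 had a positive log2 fold change in knockdown cells at 6 h, with a median of 0.12. NPM1, the nucleolar chaperone nucleophosmin, was the single gene called there (log2 fold change 0.34, SE 0.08, adjusted p = 0.0195), 0.909% of the list where 1.43% of all tested genes were called higher. Over both genotypes 8 of the 110 biogenesis factors, or 7.27%, were called higher at 6 h, where 3.70% of all tested genes were. Among the 2407 tested genes of at least 100 CPM outside the 64 members, 154 were called higher. The 8 factors were NPM1, DKC1, PES1, DDX21, EFL1, TSR1, FTSJ3 and TAF1D. Among these, NPM1 averaged 1126 CPM in knockdown cells and 1085 CPM in mock cells at 6 h, against 889.1 CPM in knockdown cells and 900.7 CPM in mock cells at 0 h (log2 fold change 0.31, SE 0.06, adjusted p = 0.000773). TSR1, a factor of small subunit maturation, had a log2 fold change of 0.25 (SE 0.05, adjusted p = 0.00422) and DDX21, a nucleolar RNA helicase, of 0.24 (SE 0.05, adjusted p = 0.00458).

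The proteins of the mitochondrial ribosome, which are encoded by other nuclear genes, were tested for all 73 genes listed. In knockdown cells at 6 h against 0 h 62 had a positive log2 fold change, with a median of 0.14, and MRPS18C was called higher (log2 fold change 0.54, SE 0.13, adjusted p = 0.0324). That was 1 of 73 genes, or 1.37% of the list, where 186 of the 13000 tested genes were called higher. In mock cells the median of the same comparison was -0.01, with 35 positive and 0 called. For knockdown against mock the median was 0.16 at 6 h, with 66 of 73 positive, and -0.09 at 30 min, with 20 of 73 positive, and 0 were called at either time. Both medians had the sign of those of the cytosolic set.

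Of the list of MYC, TOR and ribosome stress regulators 47 of 52 were tested. At 6 h against 0 h 2 of the 47 (4.26%) were called higher in knockdown cells and 3 (6.38%) in mock cells. Over both genotypes 4 (8.51%) were. Of the 13000 tested genes, 186, 252 and 481 were called higher in these comparisons. MYC was called higher at 6 h in knockdown cells (log2 fold change 0.68, SE 0.16, adjusted p = 0.0251) and in mock cells (0.73, SE 0.16, adjusted p = 0.0107). It averaged 208.8 CPM in knockdown cells at 6 h, against 130.7 CPM in knockdown cells at 0 h, and 186.1 CPM in mock cells at 6 h, against 112.6 CPM in mock cells at 0 h. EIF2AK3, the kinase PERK that slows translation under stress of the endoplasmic reticulum, was called higher in knockdown cells (0.71, SE 0.18, adjusted p = 0.0396) and in mock cells (0.90, SE 0.18, adjusted p = 0.00387). MXD4, an antagonist of MYC, was called higher in mock cells (0.75, SE 0.18, adjusted p = 0.0249) and over both genotypes (0.62, SE 0.13, adjusted p = 0.00321). MDM4, a partner of MDM2, was called higher over both genotypes at 6 h (0.32, SE 0.07, adjusted p = 0.00704). It was also called at 1 h (0.39, SE 0.07, adjusted p = 0.0308), where 5 of the 13000 tested genes were called higher. In knockdown cells at 6 h 23 of the 47 had a positive log2 fold change, and their median was -0.003. The mitochondrially encoded genes were not analysed here.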

How the data were processed

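RNA-seq of 24 chicken DF1 libraries was analysed. The submitters' processing notes name STAR 2.7.11b and HTSeq 2.0.5, as well as Trim Galore 0.6.10, FastQC 0.12.1, the edgeR release 3.40.2 and the GRCg7b build. The authors deposited whole-number read counts per gene, not normalized, and whether the counting used strand is not stated. The 5 summary lines of each table were left out of library sizes, among them 14.6 to 18.8% of reads in no gene, 1.18 to 1.33% ambiguous and 3.43 to 4.25% not unique. A count of 3 equalled 0.15 to 0.259 CPM, for counting error only. Gene positions and synonyms came from the RefSeq table of GRCg7b, and no sequence was used.

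From the counts, genes were filtered with edgeR 4.0.16 (filterByExpr, 13000 kept), scaled by TMM and fitted in 1 quasi-likelihood model of 8 group means (glmQLFit and glmQLFTest, R 4.3.3, 16 residual degrees of freedom, two-sided). The p-values were adjusted by Benjamini-Hochberg over the 13000 genes, and a gene was called at an adjusted p under 0.05. Log2 CPM used a prior count of 2. Every adjusted p in the text is from this test unless DESeq2 (1.42.0) is named. The fit was also run on simulated counts, whose outcome is not given here. These were drawn for each gene independently, so they do not cover genes that deviate together within a library. Chi-square per degree of freedom between libraries of a group was 3.08 to 52.8, so no libraries of a group were copies of each other. Same-numbered mock libraries deviated together (r 0.13 to 0.441 over genes), which pairs them by the data and not by the labels, whereas knockdown libraries and pairs across genotypes did not all exceed 0.1 (lowest r -0.145).

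The members and gene lists were chosen with earlier results of these data known. The genes named are, per comparison, those called or, where none was, the 2 highest and 2 lowest log2 fold changes, with those of widest and narrowest range and spread, the stalk proteins and the called genes of each list. Genes outside the rule are marked where they appear, and some results under the rule are not reported here. Levels were not compared between genes, for want of transcript lengths. The alternatives were DESeq2, its size factors, total count scaling, TMM without ribosomal protein genes, no filter, a fit of only the groups compared, 2 kinds of replicate block, and leaving out each library or the 4 libraries of mock replicate 2.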

Additional observations from a re-analysis of the deposited data

How the results depend on the processing

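The median log2 fold change of the 64 genes kept its sign under all alternatives for 6 h against 0 h in knockdown cells (0.20 to 0.26), in mock cells (0.04 to 0.11) and over both (0.12 to 0.17), and for knockdown against mock at 6 h (0.13 to 0.20) and 30 min (-0.22 to -0.10). It did so in 29 of 32 for knockdown against mock at 0 h, 31 of 32 at 1 h and 21 of 31 over the times, and in 20 of 32 for 30 min against 0 h over both genotypes. Calls were less stable, and the cause was not tested. Where no share of all tested genes stands beside a count below, none is given here. Such a count shows only whether calls held. Members called higher at 6 h in knockdown cells numbered 2 with DESeq2, 0 with its size factors, 0 with no filter, 0 with TMM without ribosomal protein genes, 0 with total count scaling, 50 with only the groups compared (4.27% of all tested genes), 9 with a replicate block shared by the genotypes (2.02%), 21 with a replicate block within genotypes (3.26%), 0 to 2 without 1 library and 3 without mock replicate 2. The labels do not say what same-numbered libraries share. By the data, same-numbered mock libraries deviated together (r 0.13 to 0.441), and same-numbered knockdown libraries did so less (r -0.0127 to 0.167). Whether the counts with these blocks show a weaker or stronger effect was not tested. Over both genotypes they numbered 5 with DESeq2, 4 with no filter, 15 and 32 with those blocks (4.78% and 6.90% of all tested genes), 0 with total counts, 1 to 5 without 1 library and 1 without mock replicate 2. At 6 h against 1 h the block within genotypes called 1. Members called lower in knockdown against mock at 30 min numbered 1 with DESeq2, 3 with no filter and 0 to 4 without 1 library.

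No share of all tested genes is given for the other scalings or without mock replicate 2. Those counts show only how far the numbers moved. Members without overlap changed as follows. With total count scaling they numbered 2 higher for knockdown against mock at 0 h, 22 higher at 6 h, 1 lower and 2 higher for knockdown cells at 30 min and 1 h against 0 h, and 15, 0 and 0 higher for mock cells at 30 min, 1 h and 6 h. DESeq2 size factors gave 2 higher for knockdown against mock at 0 h and 4 for mock cells at 1 h, and TMM without ribosomal protein genes 5 lower for knockdown cells at 30 min. Without mock replicate 2 they numbered 5 and 44 lower for knockdown against mock at 0 h and 30 min, 41 higher and 1 lower for mock cells at 30 min, 2 at 1 h and 29 at 6 h. The counts with 1 library left out stand beside the range of shares of all tested genes, treated alike. For knockdown against mock at 0 h they were 1 to 19 higher (7.98 to 13.7%) and 3 to 5 lower (8.1 to 12.8%). At 30 min they were 0 to 4 higher (8.05 to 16.6%) and 14 to 44 lower (8.54 to 17.7%). At 1 h they were 0 to 2 higher (5.68 to 10.3%) and 0 to 27 lower (5.85 to 11.8%). Knockdown cells against 0 h gave 0 to 1 higher (8.29 to 11.5%) and 8 to 52 lower (8.48 to 13.2%) at 30 min. At 1 h they gave 9 to 47 higher (7.32 to 15.4%) and 0 to 3 lower (8.58 to 15.8%). Mock cells gave 4 to 36 higher (5.17 to 13.8%) and 0 to 9 lower (4.71 to 10.8%) at 30 min. They gave 1 to 57 higher (5.44 to 10.6%) at 1 h and 10 to 28 higher (11.5 to 14.5%) at 6 h.

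Changes of sign were looked for only in genes called or of highest and lowest log2 fold change, and not in every comparison. The genes below are thus not all that changed sign. For knockdown against mock at 1 h the median of the members itself rose to 0.02 when a library was left out. Among the genes looked at, the log2 fold changes that changed sign were all near 0, and none was called. For RPL3 at 6 h, knockdown against mock, it was -0.0076 with total counts. For RPL14 in knockdown cells at 30 min it was -0.0017 with the shared replicate block and -0.000456 with the block within genotypes. Leaving out libraries gave, for knockdown against mock, RPL21 -0.021 to 0.123 and RPS13 -0.00781 to 0.148 at 30 min, RPS27A -0.022 to 0.108 at 1 h, and RPL3 -0.061 to 0.0975 and RPL21 -0.031 to 0.104 at 6 h. Against 0 h it gave RPL14 -0.085 to 0.0761 in knockdown cells at 30 min, and in mock cells RPS7 -0.142 to 0.00596 at 30 min, RPL12 -0.029 to 0.151 and RPL10A -0.037 to 0.186 at 1 h and RPS27 -0.111 to 0.017 at 6 h. In the interactions it gave RPS7 -0.046 to 0.11 and RPL21 -0.00453 to 0.139 at 30 min, and RPLP2 -0.051 to 0.09 and RPL36A -0.017 to 0.0967 at 6 h.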
